A study of Caenorhabditis elegans with 6 samples.

Results

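RNA of whole day 1 adult *Caenorhabditis elegans* was sequenced in 6 libraries, and in 3 of them a larger share of the reads fell on short genes. The libraries were split on that share. It was counted as the percent of all assigned reads that lay in genes with a deposited length under 500 bases, of which the table held 3288 among 20138 genes. A library above 3.5% is called short-rich here, and one below it short-poor. WT replicate 3 (4.48%), *fmo-4* OE replicate 2 (4.34%) and *fmo-4* OE replicate 3 (4.06%) were short-rich, which is 3 of 6 libraries. WT replicate 1 (2.60%), WT replicate 2 (2.68%) and *fmo-4* OE replicate 1 (2.62%) were short-poor. The 4.06% of *fmo-4* OE replicate 3 was the share nearest above the threshold and the 2.68% of WT replicate 2 the nearest below. Values of single libraries are given in this order within each set, with the short-poor set first, and the 2 sets are described with genotype kept as a covariate, so that genotype itself is not the contrast.

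The WT group is the wild-type strain and the other group carries the label *fmo-4* OE, for overexpression of the flavin-containing monooxygenase gene *fmo-4*. The study describes a ubiquitous and a hypodermal overexpression strain, and the labels do not say which was sequenced. Worms of both groups were grown at 20 °C on NGM plates with the *Escherichia coli* strain OP50, and each replicate pooled whole worms, so that every tissue and the embryos held inside the adults contributed RNA. The *fmo-4* gene had normalized counts of 528, 449 and 462 in the 3 WT replicates and of 425, 446 and 351 in replicates 1, 2 and 3 labelled *fmo-4* OE. It was thus not higher in the libraries that carry the overexpression label. Its difference between short-rich and short-poor libraries was -0.09 ± 0.16 on the log2 scale, and the sets overlapped.

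The libraries were selected on their own counts, and for this reason no test was run and no p-value is given for the split. Differences are the fitted log2 difference of the short-rich over the short-poor libraries with its standard error (SE), and they describe these 6 libraries. A gene is called higher or lower where the fitted difference was at least 2-fold and no library of one set overlapped the other set in normalized count, which is the read count scaled for library size and composition. Of 13413 genes tested, 858 were called higher, a background of 6.4%, and 111 were called lower, a background of 0.828%. Leaving out any 1 library gave 892 to 1249 higher genes and 178 to 224 lower genes, a lower count over 1.5 times the 111 with each of the 6 left out. Without the fold, 2653 genes (19.8%) were higher and 2631 (19.6%) lower with no overlap, and the median difference over all genes was 0.00. The share called higher thus exceeded the share called lower, while the genes without overlap split evenly.

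Short transcripts in *C. elegans* are not a random sample of the genome. Many encode small, abundant proteins that every cell needs, such as ribosomal proteins and the small subunits of the respiratory chain. Others encode secreted peptides of single tissues, such as antimicrobial peptides of the epidermis, saposin-like proteins of the gut and sperm proteins. Long transcripts include those of muscle filament proteins, basement membrane proteins and many germline RNA regulators.

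Other features of the libraries moved with the split. The short-poor libraries held 20020901, 17768502 and 17576872 assigned reads and the short-rich libraries 24943501, 22675429 and 21336047, so that the short-rich libraries were all sequenced more deeply. Genes with at least 1 read numbered 17446, 17094 and 16991 in the short-poor and 17845, 17922 and 18062 in the short-rich libraries. At the depth of the smallest library the expected numbers were 17323, 17084 and 16991 against 17465, 17646 and 17856, still without overlap. The labels number the short-poor libraries 1, 11 and 6 and the short-rich libraries 21, 16 and 26, so that the higher library numbers were all in the short-rich set. What those numbers stand for is not stated in the labels. Reads of rRNA genes made up 0.197, 0.113 and 0.223% of the short-poor and 0.346, 0.351 and 0.315% of the short-rich libraries. The part of depth, library number and rRNA reads in the differences described here was not tested.

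The short-rich libraries held more reads of shorter genes over the whole range of lengths, not in the class under 500 bases alone. Genes of 500 to 749 bases took a mean of 10.5% of the reads in the short-rich and 8.13% in the short-poor libraries, and genes of 750 to 999 bases 11.3% against 9.35%. Genes of 1000 to 1499 bases took nearly the same share in both sets (19.9% and 19.7%). Above that the order turned, with 13.9% against 15.97% of reads in genes of 3000 to 4999 bases. The mean gene length weighted by reads was 2246, 2239.9 and 2229.8 bases in the short-poor and 2071, 2043 and 2108 bases in the short-rich libraries.

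**Figure D1:**
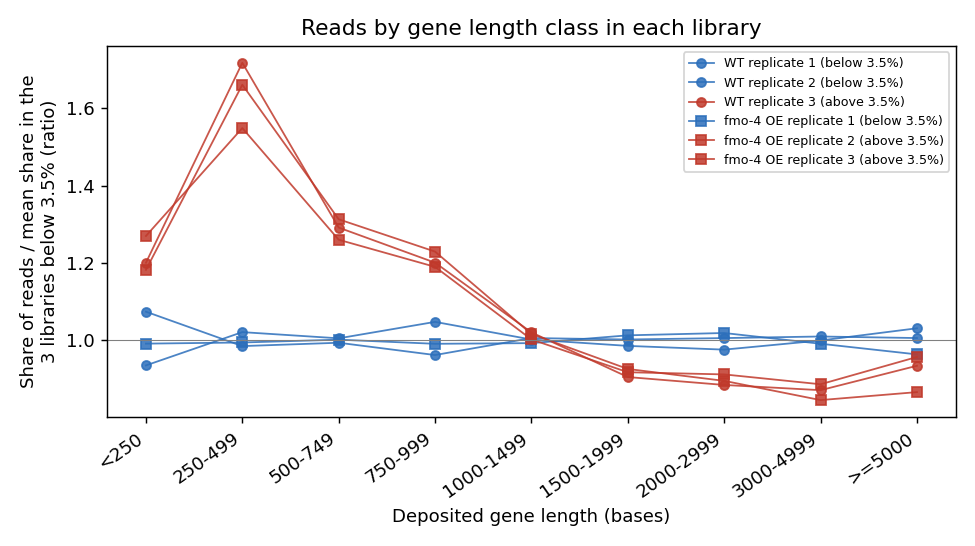
Share of reads in each class of deposited gene length (bases), divided by the mean share over the 3 short-poor libraries, with 1 line per library, circles for WT and squares for *fmo-4* OE. The 3 short-rich libraries lie above the short-poor ones in every class under 1000 bases and below them in every class from 1500 bases upward, with their peak at 250 to 499 bases.

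The fitted differences of single genes followed the same course. The median was 0.75 over the 781 genes of 250 to 499 bases tested and 0.61 over the 133 genes under 250 bases, classes that the choice of the libraries used. It was 0.26 over 1591 genes of 500 to 749 bases, 0.14 over 1832 genes of 750 to 999 bases and -0.17 over the 316 genes of 5000 bases or more. Among genes of at least 500 bases, 541 of 12499 (4.33%) were called higher and 98 (0.784%) lower. The share called higher was 14.6% at 500 to 749 bases, 3.72% at 1000 to 1499 bases and 0.193% at 3000 to 4999 bases, and none of the 316 longest genes was called in either direction. Across the 12499 genes of at least 500 bases, Spearman's rho between length and difference was -0.25, a description across genes, which are not independent replicates. The medians by length were similar within each genotype, and at 500 to 749 bases the median was 0.30 within WT and 0.30 within the libraries labelled *fmo-4* OE.

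**Figure D2:**
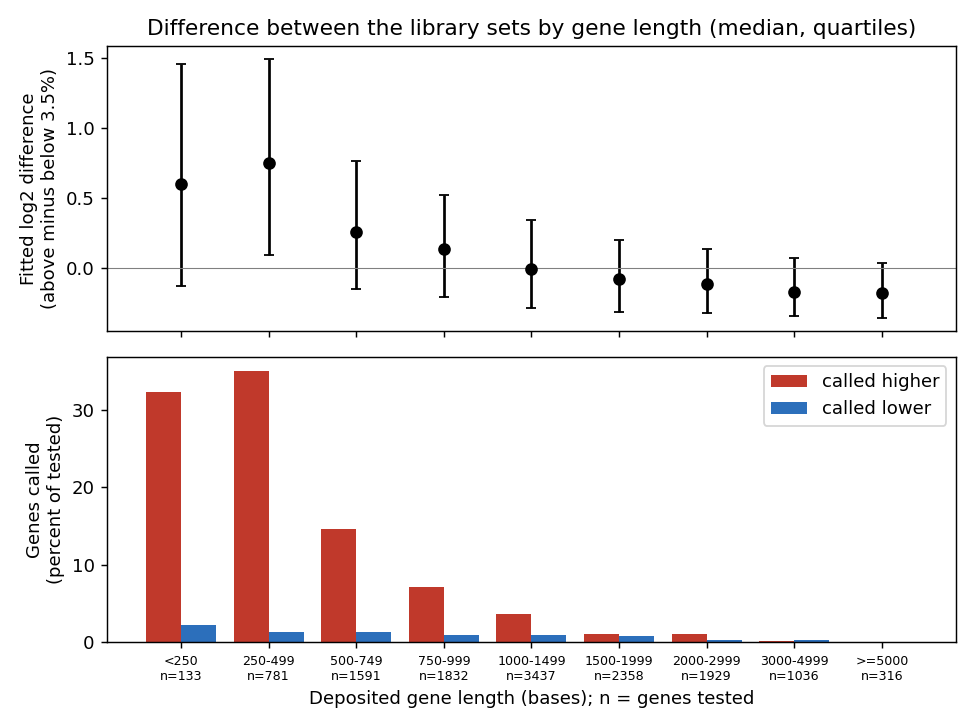
The upper panel gives the median and quartiles of the fitted log2 difference (short-rich minus short-poor) by class of deposited gene length, and the lower panel the percent of tested genes called higher and lower. The median passes from 0.75 at 250 to 499 bases to -0.17 at 5000 bases or more, and the share called higher from 35.1% to 0%.

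The length of the coding part, which the choice of libraries did not use, gave a further split. Of genes with a deposited length of 500 to 749 bases, 21.4% of the 416 with under 400 coding bases were called higher, against 12.2% of the 1150 with at least 400. The medians of these groups were 0.34 and 0.22. Chromosomes differed little, with medians from -0.05 on chromosome V to 0.01 on chromosome III over genes of at least 500 bases, apart from the mitochondrial genome described below. Among the 3125 of these genes with the highest mean counts the median was -0.10 and 81 were called higher, and among the 3125 with the lowest counts the median was 0.04 and 150 were called higher.

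Some short genes differed by far more than the class as a whole. The small ribosomal subunit gene *rps-21* (350 bases) had normalized counts of 1388, 1477 and 915 in the short-poor libraries. In the short-rich libraries its counts were 18688, 18515 and 14954, 15.4-fold higher in the fit (3.94 ± 0.15, SE). The large subunit gene *rpl-36.A* (375 bases) had 2008, 3018 and 1494 against 28399, 25086 and 20194 (3.71 ± 0.20). In both genes the libraries of each set lay close together and far from the other set. The gene *dct-16* (494 bases) had 1142, 669 and 471 against 17224, 17541 and 11883 (4.59 ± 0.32), and *romo-1* (373 bases), whose mammalian namesake is a small protein of the mitochondrial inner membrane, 55.7, 59.9 and 50.3 against 1043, 1053 and 1032 (4.26 ± 0.15). These 4 genes were picked for their size of difference after their values were seen, and as short genes they were among those that placed the libraries.

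Most of the short genes with the most reads were not called. Of the 10 genes under 500 bases with the highest mean normalized count, 9 are named as genes of ribosomal proteins or of ubiquitin fused to one. The other, C37A2.7, carries a sequence name only and is in none of the counts of ribosomal protein genes given below. Only *rps-24* and C37A2.7 were called. The small subunit gene *rps-25* (459 bases) had normalized counts of 42102, 37582 and 40963 in the short-poor and 41057, 37622 and 32343 in the short-rich libraries, with overlap (-0.09 ± 0.12). The ubiquitin fusion gene *ubq-2* (494 bases) had 30468, 31264 and 34965 against 31064, 29885 and 27402 (-0.14 ± 0.11), and *rps-30* (489 bases) differed by -0.10 ± 0.14. The large subunit gene *rpl-32* (473 bases) was lower in every short-rich library, at 43804, 39141 and 46631 against 33329, 33248 and 29522 (-0.44 ± 0.12). It overlaps *chmp-7* on the opposite strand, and the use of strand in the counting is not given in the sources used here. The values of *rps-24* (478 bases) were 7785, 21752 and 13059 against 35038, 32797 and 30312 (1.26 ± 0.39), and those of C37A2.7 (430 bases) 6450.4, 12785 and 10942 against 29466, 28482 and 26399 (1.47 ± 0.26). In both of these WT replicate 1 was the lowest library and WT replicate 2 lay between it and the short-rich libraries.

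Cytosolic ribosomal proteins, which build the ribosome, gained the most reads of the 39 gene lists looked at. Their genes took 8.61, 8.5 and 8.61% of the reads in the short-poor libraries and 11.9, 12.2 and 11.1% in the short-rich libraries. Members of at least 500 bases alone took 7.22, 7.08 and 7.19% against 9.63, 9.97 and 9.05%, so that most of this gap lay in genes the 500-base limit leaves out. Of 80 members tested, 25 were called higher and 0 lower, 68 had a difference above 0, and the median was 0.67, against 0.00 over all genes tested. Among the 57 members of at least 500 bases, 11 were called higher, and their median was 0.60.

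Within the ribosome the genes of one particle did not move together. Differences ranged from -0.44 (*rpl-32*) to 3.94 (*rps-21*). The 46 large subunit genes had a median of 0.80 with 18 called higher, and the 31 small subunit genes 0.60 with 7 called higher. The 3 P protein genes in the list, *rla-0*, *rla-1* and *rla-2*, had a median of 0.47 with none called. Of the 12 members under 400 bases 11 were called higher (median 1.80), the exception being *rpl-36* (0.74 ± 0.36), and of the 11 members of 400 to 499 bases 3 (median 0.64). Coding length split them likewise: all 11 members with under 300 coding bases were called higher, against 2 of 30 with 500 coding bases or more. These 11 all have a deposited length under 500 bases and so were among the genes that placed the libraries. The share called higher over all genes of 250 to 499 bases was 35.1%. Spearman's rho between difference and coding length was -0.46 over the 80 genes, 23 of them under 500 bases, as a description.

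Among the longer members, the large subunit gene *rpl-34* (631 bases) had 2449.8, 3314 and 2089.7 normalized counts in the short-poor libraries and 21119, 20259.7 and 19091 in the short-rich libraries (3.05 ± 0.15). Its neighbours in length *rpl-9* (628 bases) and *rpl-31* (638 bases) differed by -0.19 ± 0.11 and 0.52 ± 0.10. The large subunit gene *rpl-30* (524 bases) had 2977, 2604 and 2242 against 16356, 15361 and 14503 (2.64 ± 0.11), while *rpl-22* (518 bases) differed by -0.34 ± 0.19. Genes of nearly the same length and the same particle thus lay on opposite sides of 0. The 3 members with the highest mean counts were *rla-0*, *rpl-3* and *rpl-10*, with differences of -0.03 ± 0.28, 0.35 ± 0.15 and 0.21 ± 0.24, and none was called. The stalk protein gene *rla-0* (1037 bases) had 107826, 49228 and 68031 against 76664, 70478 and 62437, with WT replicate 1 above every other library and WT replicate 2 below.

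**Figure D3:**
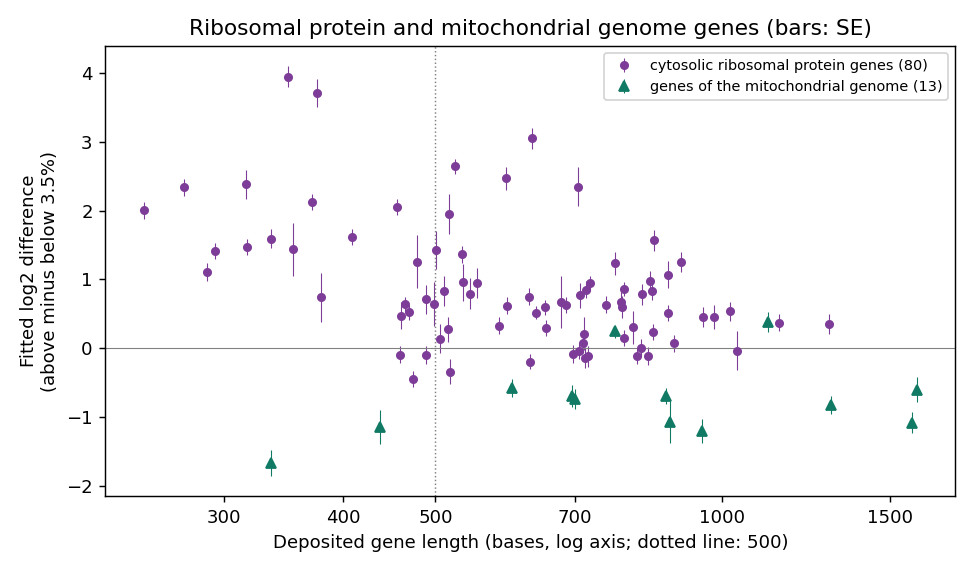
Fitted log2 difference (short-rich minus short-poor, bars ± SE) of the 80 cytosolic ribosomal protein genes (circles) and the 13 tested genes of the mitochondrial genome (triangles) against deposited gene length in bases on a log axis, with a dotted line at 500 bases. Ribosomal protein genes of like length spread from -0.44 to 3.94, and 11 of the 13 mitochondrial genes lie below 0, the 2 shortest included.

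Mitochondria hold their own small genome, which encodes core subunits of the respiratory chain, while the other subunits are encoded in the nucleus and imported. The 2 groups went opposite ways. Of 69 nuclear genes of the respiratory chain and ATP synthase, 12 (17.4%) were called higher and 0 lower, with 57 above 0 and a median of 0.30. The share called higher over all genes tested was 6.4%. Of the 12 calls 6 were in members under 500 bases, and relative to the medians of its length classes the list lay at 0.18. Of 13 tested genes of the mitochondrial genome, 0 were called higher and 5 lower, with 2 above 0 and a median of -0.74. Their summed normalized counts were 238096, 191007 and 214331 in the short-poor and 151605, 168939 and 139014 in the short-rich libraries, without overlap. Fewer mitochondria or cells and less RNA in each cannot be told apart in whole worms, here and for the tissues below.

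Short and long mitochondrial genes alike were lower, with 2 exceptions among the 13. *ND3* (336 bases), a subunit of complex I, had normalized counts of 8268, 9944 and 11391 against 3670.5, 2420.4 and 3168, 3.18-fold lower in the short-rich libraries (-1.67 ± 0.18). The longer complex I subunit *ND5* (1582 bases) had 21994, 16242 and 20434 against 9805, 9866 and 7893 (-1.08 ± 0.15), and *ND6* (437 bases) and *ND2* (881 bases) differed by -1.14 ± 0.25 and -1.08 ± 0.30. The fifth gene called lower, MTCE.33 (952 bases), is one of the mitochondrial rRNA genes, at 649, 552 and 717 against 268, 349 and 254. The catalytic subunit of cytochrome c oxidase, *COX1* (1602 bases), had the most reads of the group and 88059.9, 61490.5 and 64201 against 45384, 52618 and 39498 (-0.60 ± 0.18). The exceptions were *COX3* (0.24 ± 0.10) and *CYTB* (0.39 ± 0.14), both higher in every short-rich library. *CYTB* had 19311, 15557 and 18803 against 22468, 28438 and 21414, and a tRNA gene overlaps it on the same strand. Without the genes of the mitochondrial genome the short-rich libraries held 1.66 times the share of reads in short genes, against 1.63 times with them.

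Of the nuclear genes of the chain, the small subunits stood out. *cox-7C* (395 bases), a subunit of cytochrome c oxidase, had 362, 426 and 382 against 4402, 4049 and 3552 (3.40 ± 0.11, 10.6-fold). The cytochrome c gene *cyc-2.1* (575 bases), whose product carries electrons to that enzyme, had 1996, 2507 and 2129.7 against 10677, 11249 and 9361 (2.26 ± 0.12), and *nduv-3* (353 bases) of complex I differed by 2.43 ± 0.22. The 3 members with the highest mean counts, which encode ATP synthase subunits, differed far less. *atp-1* (2027 bases) had a difference of 0.29 ± 0.11, *atp-5* (933 bases) of 0.19 ± 0.10 and *atp-2* (1945 bases) of -0.14 ± 0.11. The 57 members of at least 500 bases had a median of 0.26 and 6 called, the 12 shorter members 0.85 and 6 called. The share called higher over all genes was 35.1% at 250 to 499 bases, 14.6% at 500 to 749 bases and 7.21% at 750 to 999 bases.

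Mitochondrial ribosomal proteins had 8 of 69 (11.6%) called higher and 0 lower (median 0.36), led by *mrpl-54* (1.89 ± 0.18). Their median length was 765 bases, and 14.6% of all genes of 500 to 749 bases and 7.21% of those of 750 to 999 bases were called higher. The 3 members with the most reads, *mrpl-44*, *mrps-18C* and *mrps-5*, lay between -0.16 and 0.06. Of 13 mitochondrial import genes 3 were called higher, all under 500 bases, among them *tin-10* with 205, 276 and 279 against 1065, 987 and 658 (1.86 ± 0.22). Of all genes of 250 to 499 bases 35.1% were called higher. The 7 longer import genes had a median of 0.03. The Sm and Lsm proteins form the core rings of splicing particles. Of 14 of their genes 4 were called higher and 12 lay above 0 (median 0.77), and *snr-1* (678 bases) had 2382, 3658 and 2862 against 6111, 5896 and 5939 (1.03 ± 0.16).

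Translation factors, which act on the ribosome but are longer genes, had a median of 0.11, with 3 of 39 called higher and 24 above 0. The elongation factor *eef-1A.1* (1556 bases) had 209601, 216281 and 235399 against 235973, 243192 and 211986, with overlap (0.05 ± 0.13), and *eef-2* and *eef-1G* differed by 0.08 ± 0.12 and -0.05 ± 0.12. The 3 called were *eif-1.A* and the cap-binding proteins *ife-1* and *ife-2*, of which *ife-2* (839 bases) had 199, 246 and 210.3 against 618, 787 and 748 (1.67 ± 0.17). Proteasome subunits, which degrade proteins, had a median of -0.06 (0.07 with the replicate block) and 1 of 33 called, *pbs-1* (1.1999 ± 0.16), and the regulatory subunit *rpn-3* was the lowest (-0.55 ± 0.09). Of 19 heat shock protein genes none was called (median 0.11, but -0.22 with replicate number as a block and -0.00 without *fmo-4* OE replicate 1), with *hsp-1* at 0.28 ± 0.13, *hsp-90* at -0.22 ± 0.14 and *hsp-110* at -0.43 ± 0.10. None of 30 genes of the ER chaperones and the unfolded protein response was called either (median -0.03, but 0.02 and 0.03 with WT replicate 2 or 3 left out), and *crt-1*, *pdi-3* and *hsp-3* had SEs of up to 0.27 around 0.38, 0.04 and 0.07.

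**Figure D4:**
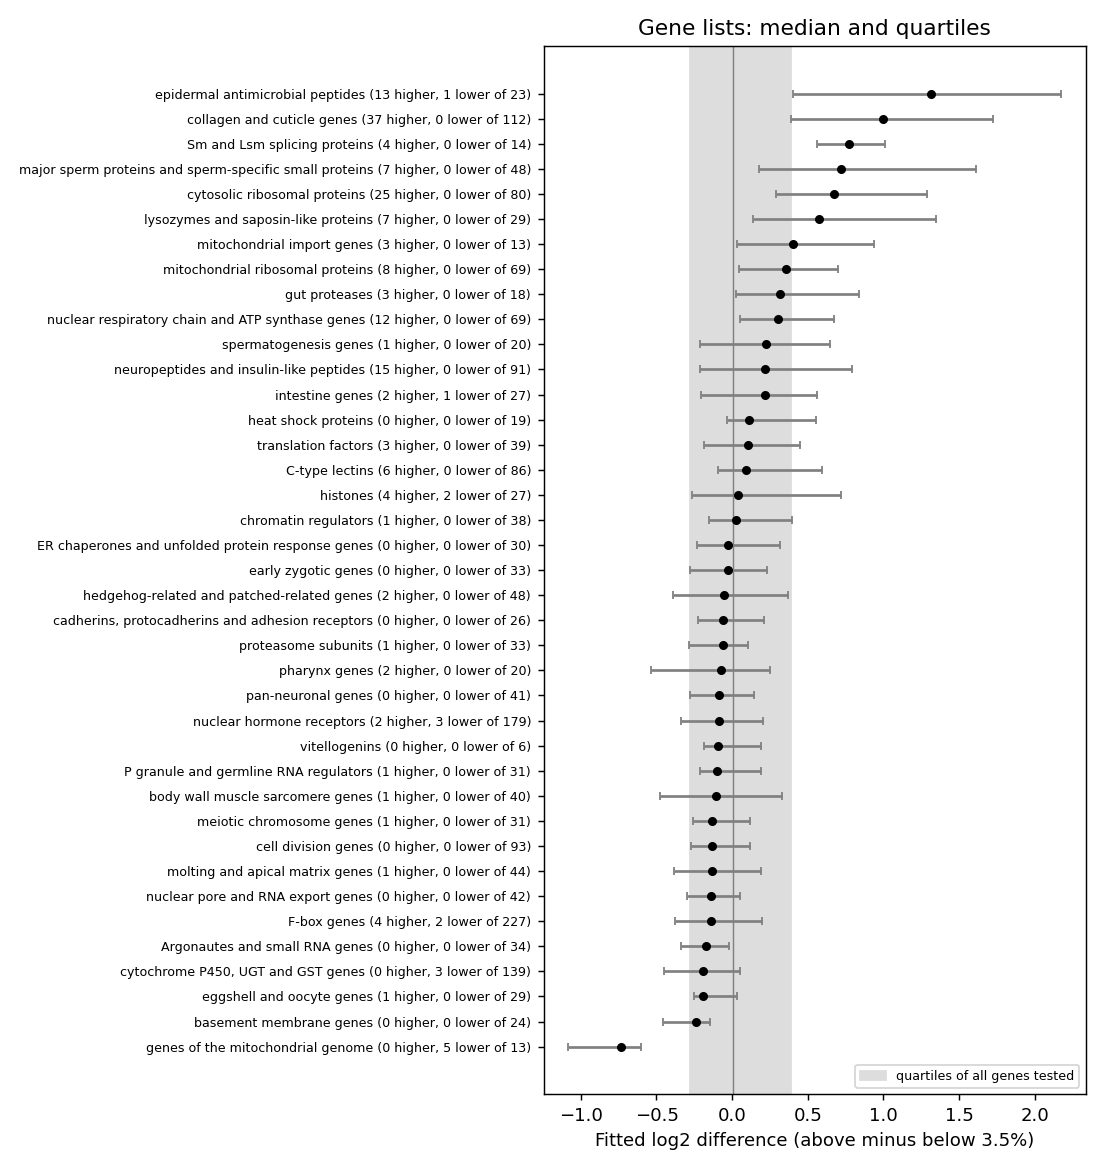
Median (point) and quartiles (bar) of the fitted log2 difference (short-rich minus short-poor) over the tested members of 39 gene lists, with the numbers called higher and lower beside each name, and the quartiles of all 13413 genes tested as a grey band. Epidermal antimicrobial peptides (1.31) and collagen and cuticle genes (1.00) have the highest medians, and genes of the mitochondrial genome (-0.74) the lowest.

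Collagens of the cuticle, the coat of secreted protein made by the epidermis, stood above what their length would give. The table held 179 collagen and cuticle genes. Of those tested 37 were called higher and 0 lower, and 101 lay above 0 and 11 below, with a median of 1.00. None of them is under 500 bases and their median length was 1022 bases. Relative to the median of their own length classes the list lay 0.94 higher, against 0.43 for cytosolic ribosomal proteins and -0.96 for genes of the mitochondrial genome. The genes named *col-* held 36 of the 37 calls, with 86 of 89 above 0. Summed normalized counts of the list were 349017, 432116 and 322899 in the short-poor and 593946, 496583 and 511718 in the short-rich libraries. The median was 0.67 within WT and 1.40 within the libraries labelled *fmo-4* OE, a difference that was not tested.

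The adult collagen *col-19* (1017 bases), a marker of the adult epidermis, had 9228, 11572 and 8668 against 29617, 22642 and 22790.4, 2.73-fold higher (1.45 ± 0.12). The other epidermis markers looked at did not separate the sets. *dpy-7* had 17.2, 162 and 133 against 29.9, 360 and 442, with overlap. *col-12* had 41.5, 33.9 and 9.1 against 37.8, 114 and 146, also with overlap. Both were high only in the short-rich libraries labelled *fmo-4* OE. *rol-6* had 0 to 65 reads per library and was not tested. The largest difference among well counted collagens was that of *col-135* (2080 bases), with 163, 289 and 234 against 2085, 780.3 and 1332 (2.71 ± 0.36). The 3 collagens with the most reads differed less. *col-124* (1144 bases) had 40412, 39686 and 30012 against 52594, 39206 and 34102 (0.34 ± 0.11), *col-140* differed by 0.46 ± 0.12 and *col-20* by 0.18 ± 0.15, each with overlap. The molting and apical matrix genes, expressed by the same tissue when a new cuticle is laid down, had a median of -0.14 with 1 of 44 called, with the median at 0.29 if WT replicate 2 was left out and at 0.28 if WT replicate 3 was. Their leading members *noah-1*, *noah-2* and *mlt-11* had SEs of 0.73, 0.70 and 1.14 and went along no set. *mlt-11* had 71.9, 642 and 601 against 139, 910.5 and 1651, with WT replicate 1 lowest and *fmo-4* OE replicate 3 highest.

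Epidermal antimicrobial peptides, small secreted peptides of the same tissue, had 13 of 23 tested members called higher and 1 lower, and a median of 1.31. All but 3 are under 500 bases and so among the genes that placed the libraries, with 11 of the 13 higher calls. Over all genes of 250 to 499 bases 35.1% were called higher. Relative to its length classes this list of peptides lay at 0.69. *nlp-29* (368 bases), known to be induced by fungal infection and by wounding, had 19.2, 6.78 and 19.4 against 187, 135 and 114 (3.28 ± 0.42). *nlp-33* had 35.4, 52 and 30.9 against 513, 293 and 294 (3.42 ± 0.23). Of the members with the most reads, *fipr-21* had 750.1, 401 and 417 against 1543, 935 and 979 (1.31 ± 0.22) and *nlp-24* 284, 489 and 256 against 1419, 784 and 770.0 (1.75 ± 0.21). *fipr-2* (393 bases), near in length to these, went the other way, with 391, 736 and 421 against 219, 256 and 257 (-1.04 ± 0.28). The opposite-strand genes *glb-15* and *gcy-13* overlap *nlp-24* and *fipr-2*.

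Lysozymes and saposin-like proteins, which act on ingested bacteria, had 7 of 29 called higher and 0 lower (median 0.57). Of these members 12 are under 500 bases and so among the genes that placed the libraries, with 4 of the 7 calls, and the 17 longer members had 3 calls and a median of 0.32. Of all genes of 250 to 499 bases 35.1% were called higher. Relative to its length classes this list lay at 0.20. The invertebrate-type lysozyme *ilys-5* (1023 bases) had 4045, 6237 and 3479 against 17406, 12943 and 13994 (1.86 ± 0.17), and the short gene *spp-4* (402 bases) 111, 191 and 78.9 against 735, 418 and 618 (2.48 ± 0.28). The equally short *spp-5* (404 bases) differed by 0.10 ± 0.17 with overlap, as did *spp-14* (0.66 ± 0.32). Gut proteases, none of them under 500 bases, likewise had 3 of 18 called higher and a median of 0.32. The cathepsin B gene *cpr-1* (1117 bases) had 4869, 5558 and 2963 against 19767, 7171 and 11542 (1.79 ± 0.18), while *asp-1* differed by 0.57 ± 0.10, *cpr-6* by 0.04 ± 0.14 and *cpr-9* by -0.03 ± 0.12.

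The broader list of 27 intestine genes had 2 (7.41%) called higher and 1 lower (median 0.21), beside 6.4% and 0.828% of all genes tested. The intestinal actin *act-5* (1345 bases) had 5603, 7120.3 and 5274 against 12023, 11259.9 and 9643 (0.95 ± 0.12), just under the 2-fold limit, and the intestinal transcription factor *elt-2* differed by 0.75 ± 0.25. The other markers of this tissue, *ges-1* and *vha-6*, differed by 0.12 ± 0.14 and -0.29 ± 0.12, and *cpl-1* and *acdh-1*, with the most reads of the list, by 0.06 ± 0.12 and -0.04 ± 0.11. *ftn-1*, a ferritin that stores iron, was the member called lower, at 85, 33.9 and 53.7 against 17.596, 16.9 and 25.8 (-1.54 ± 0.47). The vitellogenins, yolk proteins made in the adult intestine and among the genes with the most reads, had no call among 6 and a median of -0.09. *vit-6* had 245955, 297403 and 196410 against 343197, 277729 and 281857 (0.42 ± 0.14) and *vit-3* 106107, 125469 and 115075 against 85158, 91176 and 80276 (-0.43 ± 0.13), and *vit-2* (0.27), *vit-5* (-0.20), *vit-1* (-0.05) and *vit-4* (-0.13) lay between them. Members of the family thus differed in sign.

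Genes of the germ line and of oocytes, which fill much of the adult hermaphrodite, differed little between the sets. The medians were -0.19 over 29 eggshell and oocyte genes, -0.10 over 31 P granule and germline RNA regulators (0.03 with the replicate block), -0.13 over 31 meiotic chromosome genes, -0.17 over 34 Argonautes and small RNA genes and -0.13 over 93 cell division genes. The calls in these lists were 3 in all and all higher: *perm-2*, *ife-1* and *lab-1*. *perm-2* (718 bases), which encodes a protein of the eggshell's permeability barrier layer, had 4451, 2717 and 2156 against 18261, 17346 and 16486 (2.66 ± 0.23, 6.31-fold). The other eggshell genes *cbd-1* and *cpg-2* differed by -0.22 ± 0.11 and 0.31 ± 0.11, and the oocyte gene *cey-2* by -0.20 ± 0.12. *lab-1* (650 bases), which acts on chromosomes in meiosis, had 302, 329 and 275 against 786, 780.3 and 697 (1.37 ± 0.14).

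The germline helicase *cgh-1* differed by -0.19 ± 0.11, *car-1* by 0.22 ± 0.11 and *gld-1* by -0.21 ± 0.10, all without overlap, *car-1* higher and the others lower. In meiosis, *him-1*, *him-17* and *plk-2* lay between -0.30 and -0.19. The Argonautes *wago-1*, *hrde-1* and *csr-1* differed by 0.02 ± 0.11, -0.32 ± 0.11 and -0.04 ± 0.10, and 28 of the 34 in that list lay below 0. Among the cell division genes *cdc-48.1*, *cyb-3* and *mcm-7* lay between -0.38 and -0.25. Most differences here were small and below 0, and relative to their length classes these lists lay within 0.1 of 0, at -0.08, 0.03, -0.07, -0.08 and 0.00.

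Sperm genes did not follow the split as a group. Major sperm proteins and the other small sperm proteins summed to 14049, 2457 and 2501 normalized counts in the short-poor and 15126, 3525 and 2709 in the short-rich libraries. WT replicates 1 and 3 stood apart from the rest, one from each set. Of 48 members 7 were called higher and 0 lower (median 0.72), and 40 of the 48 are under 500 bases, so that this list adds to the share of short genes in WT replicate 1 as in WT replicate 3. All 7 calls were in members under 500 bases, and over all genes of 250 to 499 bases 35.1% were called higher. Relative to its length classes the list lay at 0.05. None of the 27 *msp* genes tested was called. Of the 7 *nspd* genes, a family of small sperm peptides, 6 were called higher, and their summed normalized counts were 72.9, 25.99 and 17.1 against 1217, 269 and 145. Copies of both families are nearly identical in sequence, and counts may have been split between them. The 3 members with the most reads, *ssq-2*, *ssq-4* and *ssq-1*, had SEs of 0.76 to 0.83, and *ssq-2* had 978, 89.3 and 109.7 against 999, 259 and 189.

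The 20 longer genes of spermatogenesis had a median of 0.22 and 1 call (-0.04 without WT replicate 2), and their members with the most reads *spe-39*, *spe-48* and *spe-44* differed by -0.37 ± 0.09, -0.33 ± 0.13 and -0.38 ± 0.14. Early zygotic genes, which mark embryos, had none of 33 called (median -0.03, but 0.26 and 0.27 with WT replicate 2 or 3 left out). *sdz-27* differed by -0.28 ± 0.13 and *vet-2* by -0.03 ± 0.22, and *sdz-28* had 98.2, 195 and 219 against 71.3, 159 and 252. The embryo marker *end-1* had 1 to 21 reads per library. Embryo genes gave no call between the sets.

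Muscle, pharynx and nerve genes had medians slightly under 0. Of 40 genes of the body wall muscle sarcomere 1 was called higher (median -0.11). The myosin heavy chain *unc-54* (6264 bases) had 20621, 25500.5 and 23011 against 21696, 22049.7 and 18880.4 with overlap (-0.13 ± 0.12), *pat-10* differed by -0.11 ± 0.15 and the actin *act-4* by 0.31 ± 0.11. The other myosin *myo-3* and the paramyosin *unc-15* were lower without overlap, at -0.74 ± 0.10 and -0.60 ± 0.12. The called gene was the myosin light chain *mlc-2* (662 bases), with 2831, 6899.9 and 4211 against 11039.6, 10534 and 9456 (1.21 ± 0.34), and the lowest the giant filament protein gene *ketn-1* (14518 bases), with 3847, 4588 and 4334 against 2225, 2401 and 2282 (-0.91 ± 0.10).

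Pharynx genes had 2 of 20 called higher (median -0.07, but 0.06 and 0.23 with WT replicate 2 or 3 left out). The pharyngeal myosins *myo-1* and *myo-2* differed by -0.71 ± 0.14 and -0.55 ± 0.18, and *phat-7* by -0.08 ± 0.18. None of 41 pan-neuronal genes was called (median -0.08). Those with the most reads were *tba-1* (-0.02 ± 0.12), *snb-1* (-0.19 ± 0.10) and *maco-1* (-0.26 ± 0.08). Of the other neuron markers looked at, *unc-64* was higher in every short-rich library (0.51 ± 0.20). *egl-3* and *rab-3* differed by 0.08 ± 0.18 and 0.01 ± 0.26, with overlap. Neuropeptides and insulin-like peptides, many of them short, had 15 of 91 called higher and 0 lower (median 0.22, but -0.04 with the replicate block). The 62 members of at least 500 bases held 7 of the calls. The short member *nlp-36* (465 bases) had 530.5, 516 and 501 against 1056, 902 and 817 and missed the fold limit (0.90 ± 0.12). The longer *nlp-40* and *nlp-20* differed by -0.14 ± 0.10 and -0.17 ± 0.16. Relative to its length classes this list lay at -0.11.

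Of 24 basement membrane genes, which encode the sheets of extracellular matrix around tissues, 21 lay below 0 and none was called (median -0.24). The collagen IV chain *let-2* (5855 bases) was an exception, with 5849, 7643 and 6221 against 8296, 8253 and 8269 (0.35 ± 0.12), while *sqv-5* differed by -0.23 ± 0.08 and *ost-1* by 0.20 ± 0.16. None of 26 cadherins and adhesion receptors was called (median -0.06, but 0.18, 0.38 and 0.02 with WT replicate 2, WT replicate 3 or *fmo-4* OE replicate 2 left out), with *sax-7* at -0.44 ± 0.09, *ptp-2* at -0.28 ± 0.09 and *hmr-1*, the E-cadherin gene, at 0.39 ± 0.10. Nuclear pore and RNA export genes (median -0.14) had none of 42 called, with *imb-3*, *npp-9* and *ran-1* at -0.28, 0.17 and 0.52. Hedgehog-related and patched-related genes had 2 of 48 called higher (median -0.06, turning to 0.13 and 0.01 with WT replicate 3 or *fmo-4* OE replicate 2 left out), with *ptc-1*, *ptr-2* and *grd-3* at -0.30, -0.04 and 0.60.

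Chromatin regulators had a median of 0.03 (-0.19 with the replicate block, -0.06 with library size alone as scaling, -0.02 without WT replicate 1, -0.03 without WT replicate 3) and 1 of 38 called, *hpl-2* (1216 bases), a heterochromatin protein, with 575, 921 and 725 against 2564, 2292 and 2293 (1.72 ± 0.17). The histone variant *htz-1* differed by 0.43 ± 0.12, *let-418* by 0.20 ± 0.08 and *swsn-4* by -0.15 ± 0.08. Histones had 4 of 27 called higher and 2 lower (median 0.04, but -0.08 with the replicate block, -0.05 with library size alone and -0.08 without WT replicate 1), and the near-identical copies make single genes uncertain. All 4 higher calls were among the 16 members under 500 bases, which helped to place the libraries. The share called higher over all genes of 250 to 499 bases was 35.1%, and relative to its length classes this list lay at -0.45. *his-72* and *his-74* differed by 0.09 ± 0.17 and 0.04 ± 0.10, and the linker histone *his-24* had 629.7, 2222 and 2097 against 2165, 7082 and 7717, high only in the short-rich libraries labelled *fmo-4* OE. C-type lectins had 6 of 86 (6.98%) called higher (median 0.09), near the 6.4% of all genes tested, with *clec-63* at 0.66 ± 0.13, *clec-88* at 0.07 ± 0.10 and *clec-87* at -0.01 ± 0.11.

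Genes called lower were few, and detoxification genes were among them. Of 139 cytochrome P450, UGT and GST genes, enzymes that modify and conjugate foreign compounds, 3 were called lower and 0 higher, and the median was -0.19. The background of lower calls was 0.828%. The glutathione transferase *gst-4* (796 bases), known as a reporter of the oxidative stress response, was the lowest of the well counted genes, with 584, 497 and 502 against 152, 225 and 117.4, 3.22-fold lower (-1.69 ± 0.26). *cyp-13A2* (1593 bases) had 247, 118.6 and 160.0 against 73, 85.2 and 47.7 (-1.29 ± 0.36), and *cyp-32A1* differed by -1.01 ± 0.29. The members with the most reads, *gst-1*, *gst-7* and *cyp-31A2*, differed by -0.17 ± 0.08, -0.03 ± 0.12 and -0.12 ± 0.08. For *cyp-13A2* the fit with replicate number as a block gave 0.14, so that its direction did not hold there. In that fit the set difference rests on WT replicate 2 and *fmo-4* OE replicate 2 alone.

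F-box genes, which encode substrate adaptors of ubiquitin ligases, had 4 of 227 called higher and 2 lower (median -0.14), beside 6.4% and 0.828% of all genes tested, with *fbxa-215*, *fbxa-210* and *fbxa-101* at -0.20, -0.59 and -0.52. Nuclear hormone receptors had 2 of 179 called higher and 3 lower (median -0.09), with *nhr-49*, *nhr-66* and *nhr-114* at -0.11, -0.19 and 0.36. The transporter *oat-1* had 201, 143 and 142 against 87.1, 53.4 and 60.1 (-1.15 ± 0.25), and the tubulin ligase family gene *ttll-15* 202, 139 and 165 against 90.6, 69.3 and 60.1 (-1.13 ± 0.25).

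The other genes among the 10 lowest of at least 500 bases and 100 mean counts carry sequence names only. C15F1.1 had 254, 239.5 and 235.5 against 108, 103 and 106 (-1.18 ± 0.19), and C10C5.5 373, 115 and 176 against 106, 93.7 and 60.1 (-1.196 ± 0.44). C10C5.5 turned to 0.67 in the fit with the replicate block. Y106G6D.6 (-1.26 ± 0.19), F28H7.8 (-1.203 ± 0.32) and C50F4.8 (-1.13 ± 0.21) each overlap a gene in the table, so that part of their reads may belong to it. All 10 lowest genes, MTCE.33 and *gst-4* included, were between 2.18-fold and 3.22-fold lower.

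The 10 highest genes of at least 500 bases and 100 mean counts were more distant from 0, from 6.31-fold to 11.6-fold higher. They included *rpl-34*, *col-135* and *perm-2*, described above. The noncoding RNA *tts-1* (711 bases), which is associated with ribosomes in long-lived worms, had 233, 151 and 111 against 1634, 502 and 1043 (2.95 ± 0.32). *elb-1* (521 bases), of the elongin B family, had 187, 172 and 102 against 1208, 1206 and 1184 (3.11 ± 0.19). *tipn-1* (826 bases) had 120.5, 219 and 126 against 1138, 1014 and 946 (2.85 ± 0.23) and the zinc finger gene *znf-593* (857 bases) 148, 166 and 104.03 against 882, 895 and 693 (2.70 ± 0.19). In each of these 4 genes the lowest short-rich library held over 2 times the count of the highest short-poor library.

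Y9D1A.1 (1371 bases) had 11.1, 41.8 and 26.3 against 283, 332 and 332 (3.53 ± 0.42), and F12E12.1 (516 bases) 46.6, 48.6 and 44.6 against 382, 471 and 426 (3.15 ± 0.20). F41F3.3 (583 bases) had 26.3, 53.1 and 25.1 against 65.1, 429.9 and 1131, with an SE of 1.196, and it was high in the short-rich libraries labelled *fmo-4* OE while WT replicate 3 was near the short-poor libraries. The genes *nta-1*, F23C8.8 and *npp-16* overlap F12E12.1, *tipn-1* and *znf-593*.

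Transcripts that are not messenger RNA were mostly short, and thus among the genes that placed the libraries. Of 92 tested genes annotated as ncRNA, 24 were called higher and 1 lower (median 0.47), and 68 of them are under 500 bases. All 24 snoRNA genes tested, which guide the modification of rRNA, are under 500 bases, and 9 were called higher and 2 lower (median 0.54). Among all genes tested, 32.3% of those under 250 bases and 35.1% of those of 250 to 499 bases were called higher. Of the 24 ncRNA genes of at least 500 bases 7 were called higher and 1 lower, beside 4.33% and 0.784% of all genes of that length. Selection on poly-T beads should leave few of these. The nuclear rRNA gene *rrn-3.1* (3509 bases) had 34918, 18973 and 38514 against 66168, 64719.6 and 55748 (0.97 ± 0.25), against the direction of other genes of its length. Its shorter copy *rrn-3.56* was called higher, at 1065, 219 and 569 against 2631, 2528 and 2305, and reads of the repeated rRNA copies cannot be told apart. Both mitochondrial rRNA genes, by contrast, were lower.

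Among the 10 genes of at least 500 bases with the highest mean counts no gene was called. They were the 6 vitellogenins, *eef-1A.1*, *eef-2*, *hsp-90* and *hsp-1*, and their differences lay between -0.43 and 0.42.

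The 2 genotypes hold separate libraries, so that genes picked in one can be read in the other. Within WT, replicate 3 was set against replicates 1 and 2, and within the libraries labelled *fmo-4* OE, replicates 2 and 3 against replicate 1, on log2 of the normalized count plus 1 and for the 12499 genes of at least 500 bases. Within WT 740 genes (5.92%) were higher at 2-fold without overlap and 388 (3.1%) lower. Within *fmo-4* OE 1101 (8.81%) were higher and 264 (2.11%) lower. Of the 740 genes higher within WT, 664 (89.7%) were above 0 within *fmo-4* OE, with a median of 1.15, and 427 (57.7%) were also called there, against a background of 8.81%. Of the 1101 genes higher within *fmo-4* OE, 865 (78.6%) were above 0 within WT, with a median of 0.80, and 427 (38.8%) were called, beside 5.92%.

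Of the 388 genes lower within WT, 195 (50.3%) were below 0 within *fmo-4* OE, beside 50.7% of all genes, with a median of -0.01, and 49 (12.6%) were called, beside 2.11%. Of the 264 genes lower within *fmo-4* OE, 189 (71.6%) were below 0 within WT, with a median of -0.39, and 49 (18.6%) were called, beside 3.1%. Over all 12499 genes Pearson's r between the 2 sets of differences was 0.47 and Spearman's rho 0.52, as a description across genes, which are not independent replicates. In both directions the share called exceeded its background, and all 6 libraries had been placed by their own counts.

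**Figure D5:**
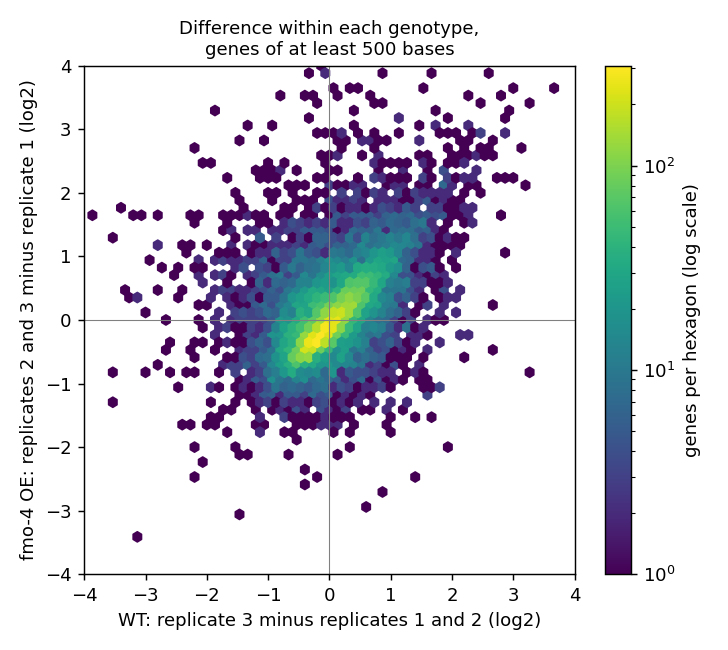
Log2 difference within WT (replicate 3 minus the mean of replicates 1 and 2, horizontal) against that within the libraries labelled *fmo-4* OE (mean of replicates 2 and 3 minus replicate 1, vertical) for genes of at least 500 bases, with colour for the number of genes on a log scale. The genes stretch along the diagonal towards the upper right, where 427 genes are called in both, and 18 genes lie outside the axes.

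Pairs of libraries differed within the sets too. Among genes of at least 500 bases, 556 to 1645 differed at least 2-fold between 2 short-rich libraries, 842 to 1561 between 2 short-poor libraries and 1370 to 2602 between libraries of different sets. WT replicate 1 and WT replicate 2 differed in 1551 genes, while WT replicate 1 and WT replicate 3, of different sets, differed in 1463. The split was therefore not the only large difference among the 6 libraries. The sets hold 2 WT libraries and 1 labelled *fmo-4* OE on the short-poor side and 1 and 2 on the short-rich side, and the covariate removes only a shift common to a genotype.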

How the data were processed

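Poly(A) RNA of about 600 pooled day 1 adults per replicate was sequenced by the authors as paired ends. The submitters' processing notes name fastp, HISAT2, StringTie and featureCounts, without versions or roles, and the genome build, the strandedness of the library and the use of strand in counting are not given in the sources used here. The deposited read counts per gene were used as they stand. The authors' normalized values, FPKM values, fold changes and p-values were not used, and 66 per-library columns were left out. The deposited gene length gave the length classes, and coding length was taken from the WBcel235 annotation. Genes were named through WormBase identifiers for 18797 of 20138 genes and from RefSeq for 1025, and 12 mitochondrial genes by position. Coordinates served only to find overlapping genes.

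Counts were fitted in R 4.3.3 with edgeR 4.0.16 (limma 3.58.1), filterByExpr at its defaults, TMM factors (0.941 to 1.03), glmQLFit and the model set of libraries plus genotype. No p-value was read. For normalized counts, each library was scaled to the mean of the 6 TMM-adjusted library sizes. The fit was checked on simulated counts. Precision is limited by the 3 libraries per set, and the labels call the libraries of a genotype biological replicates.

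The library sets and the 39 gene lists were chosen with earlier results of these data known. Named genes were the 10 highest and 10 lowest called genes of at least 500 bases with a mean normalized count of at least 100, the 10 genes under and the 10 of at least 500 bases with the highest mean counts, the 3 members of each list with the highest mean counts, and *fmo-4*. Extremes of lists, called members, tissue markers and genes of like length were named as well after their values were seen. In 14 genes, 3 in the sperm list and 1 in the collagen list, every short-poor library had 3 or fewer counts, and with those genes at a bound of 3 counts per library the list medians did not change. Alternatives were other scalings, filters, covariates and thresholds, DESeq2 1.42.0 and each library left out.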

Additional observations from a re-analysis of the deposited data

Results flagged for a closer look

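In 5 results the 2 genotypes moved in opposite directions, with no overlap of the libraries within either. No difference between the genotypes was tested. For pharynx genes, the median of centred log2 counts was 0.60 lower in the short-rich library within WT (-0.60) and 0.24 higher within the libraries labelled *fmo-4* OE, a gap of -0.83. The gap was 0.28 for *mrpl-44*, -0.56 for *phat-7*, 0.38 for *cpr-9* and -1.85 for *noah-2*. The last had -1.15 within WT and 0.70 within *fmo-4* OE. Each genotype has 2 libraries on one side and 1 on the other, and 39 lists and 150 genes were looked at.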

How the results depend on the processing

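The count of genes called higher was 858 and of genes called lower 111. Without a filter beyond 1 count they were 1331 and 274, of 20138 genes. At 1.5-fold without overlap they were 1617 and 593, and without any fold 2653 and 2631. With at least 10 counts in every library the lower count was 71, and among genes of at least 500 bases the higher count was 541. Leaving out 1 library at a time gave 892 to 1249 higher and 178 to 224 lower genes, where fewer libraries per set make a lack of overlap easier to reach. RLE factors, TMM on genes of at least 500 bases, library size without TMM factors, DESeq2, protein-coding genes alone and no covariate moved neither count by over 1.5 times. Library size without TMM factors set the median of all genes at -0.08, and gave 740 higher and 162 lower.

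Replicate numbers did not pair the libraries: deviations from the genotype means correlated at 0.40, -0.30 and 0.34 for numbers 1, 2 and 3. With genotype and a replicate block 836 genes were higher and 163 lower, of which 654 and 61 were among those called without the block. The block turned *cyp-13A2* to 0.14 and C10C5.5 to 0.67. Both libraries numbered 1 were short-poor and both numbered 3 short-rich. The set difference in this fit therefore rests on the libraries numbered 2, 1 in each set, and is less certain than that without the block. The cause was not tested.

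The share of reads in short genes was 1.63 times as large in the short-rich libraries at 500 bases, 2.41 times at 400, 1.37 times at 750 and 1.29 times at 1000 bases. A pair of alternatives was chosen after seeing the data: without ribosomal protein genes it was 1.71 times, and by spliced length of the annotation 1.60 times. Leaving out 1 library gave 1.59 to 1.68 times. List medians stayed within the spread of the libraries in 403 of 468 comparisons. Up to 7 of 39 list medians changed sign under one setting, all of lists whose medians lay from -0.14 to 0.22.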
